A study of Mus musculus with 6 samples.

Results

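The genes described here are 50 components of the bone morphogenetic protein (BMP) and transforming growth factor beta (TGF-beta) pathways. They were chosen by symbol from knowledge of the pathway, with earlier results of these data known. The symbols were found in the deposited count table, which lists 21006 gene symbols. All 50 passed the filter on low counts and were among the 14555 genes tested. They comprise 14 ligands, the procollagen protease Bmp1, 12 receptors and co-receptors, 8 secreted modulators, 6 SMAD transducers, 5 membrane or intracellular inhibitors and 4 ID genes.

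RNA was profiled in neural crest cells of mouse branchial arches, the facial and pharyngeal swellings of the embryo, at E11.5. The 3 double-knockout (DKO) libraries came from embryos with the genotype Ehmt1f/f, Ehmt2f/f, and the 3 control libraries from embryos with Ehmt1+/+, Ehmt2+/+. Both groups carried Wnt1-cre and 1 Rosa26 TdTomato allele, and TdTomato-positive cells were sorted after papain dissociation. Ehmt1 and Ehmt2 encode GLP and G9a, the enzymes that place mono- and dimethyl marks on lysine 9 of histone H3. Wnt1-cre recombines floxed alleles in the neural crest and the dorsal neural tube, so the deletion is limited to that lineage, and the control carries no floxed allele. The labels do not state whether a library came from 1 embryo or a pool, so the p-values measure only the spread between these libraries.

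BMP and TGF-beta ligands are secreted dimers that bring type I and type II serine/threonine kinase receptors together. The type I receptor then phosphorylates receptor SMADs, SMAD1, SMAD5 and SMAD9 for BMPs and SMAD2 and SMAD3 for TGF-betas and activins, which join SMAD4 and enter the nucleus. Noggin, chordin, gremlin and follistatin bind ligands outside the cell, SMAD6, SMAD7, the SMURF ligases and BAMBI dampen the signal inside the cell or at its membrane, and the ID genes are classical direct BMP targets. In the arches the pathway is known for its part in patterning the lower jaw and in survival and bone and cartilage differentiation of crest cells.

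Total counts ranged from 23414466 to 44538260 per library. Levels are in CPM, the usual depth-normalised count unit, with library totals scaled by TMM, and are given as mean ± SD with n = 3 for each group. The DKO level of Ehmt2 was 128 ± 11.3 CPM against 355 ± 7.13 CPM in control, and that of Ehmt1 was 148 ± 18.2 CPM against 259 ± 8.92 CPM. Both were lower in all 3 DKO libraries, with log2 fold changes of -1.47 (SE 0.082, adjusted p = 0.000208) for Ehmt2 and -0.81 (SE 0.095, adjusted p = 0.00476) for Ehmt1 by edgeR's quasi-likelihood test. The counts are per gene and the labels do not say which exons are floxed, so transcripts that lack only those exons are counted. Of the 14555 tested genes, 438 were called at an adjusted p under 0.05, 319 higher and 119 lower, which is 72.8% higher; with scaling by library size only, 83.9% of calls were higher. DKO replicate 3 stood nearest to the control libraries on the first principal component, so results that rest on it are also given without it. The 12 arch crest markers were all tested, none was called, and together they reached 2218 ± 186 CPM in DKO libraries against 2421 ± 196 CPM in controls.

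The promoter sequences of Bmpr1a and Tgfb1, the members with the smallest p-values of the comparison, are shown to place the genes. They are from RefSeq on GRCm38.p6, written 5′ to 3′ on the gene's strand, and capitals mark GGCGCC, a sequence bound by BMP SMADs, and GGGCGG or its complement CCGCCC, the GC box bound by Sp1. The Bmpr1a stretch is chr14:34502688-34502796 on the minus strand, the 109 bases of the window upstream of its RefSeq start that no Bmpr1a exon of GENCODE vM21 covers, inside an intron of the annotated gene. The Tgfb1 stretch is chr7:25686752-25687001 on the plus strand, the 250 bases before its start.
Bmpr1a: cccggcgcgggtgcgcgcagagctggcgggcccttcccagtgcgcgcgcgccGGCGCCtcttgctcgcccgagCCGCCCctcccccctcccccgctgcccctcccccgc
Tgfb1: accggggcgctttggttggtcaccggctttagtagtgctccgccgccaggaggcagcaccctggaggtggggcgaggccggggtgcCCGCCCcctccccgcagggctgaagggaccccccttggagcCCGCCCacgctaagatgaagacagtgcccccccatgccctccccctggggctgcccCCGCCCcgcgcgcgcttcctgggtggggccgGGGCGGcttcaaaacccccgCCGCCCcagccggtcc
The Bmpr1a stretch holds 17 CpG sites in 109 bases with a GC content of 84.4%, 1 GGCGCC and 1 CCGCCC. The Tgfb1 stretch holds 21 CpG sites in 250 bases with a GC content of 75.2%, 5 GC boxes on either strand and 0 GGCGCC.

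A RefSeq promoter was matched for 33 of the 50 genes. Within 250 bases upstream, GGCGCC was found in 10 of these 33 genes (30.3%), against 16.4% of 14793 promoters of tested genes. A gene counted when any of its promoters held the sequence, and the 33 genes had 38 promoters. The background shares are over single promoters, so the units differ and the gene shares are raised by comparison. These 10 were Bmpr1a, Bmpr2, Tgfbr1, Chrd, Grem1, Smad5, Smad9, Smurf2, Id2 and Id4. GGGCGG on either strand was found in 27 of 33 (81.8%) against 56.3%, CAGACA on either strand, a sequence bound by SMADs, in 5 of 33 (15.2%) against 13.7%, and the palindrome GTCTAGAC in 0 of 33 against 0.216%. The median number of CpG sites was 22 in 38 member promoters and 15 in all promoters. GGCGCC reads the same on both strands, and GGGCGG and GGCGCC matches may share bases.

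Across the 50 genes, most estimated differences between DKO and control were small, with a small lean to lower values. 1 gene fell, the type I BMP receptor gene Bmpr1a, and 0 rose, where 3.01% of all tested genes were called, 0.818% lower and 2.19% higher. By the unadjusted p under 0.05, 13 of 50 passed (26%), against 20.9% of all genes, 12 of them lower (against 9.89% of all genes) and Bambi higher (against 11.0%). The DKO and control libraries did not overlap for 10 of 50 genes (20%), against 27.2% of all genes, so non-overlap was no more frequent here than in the background. The log2 fold change was negative for 40 of 50 genes (80%), against 51.2% of all genes, and its median was -0.16, against -0.0062 over all tested genes. With scaling by library size only, 32 of 50 were negative with a median of -0.087, while the median of all genes was 0.073. Of the estimates, 44 of 50 lay within 0.5 of 0 on the log2 scale, though some had wide intervals. Inhba was the only gene whose estimate from all 6 libraries was beyond 2-fold. In these bulk libraries, fewer cells of a type and less RNA per cell cannot be told apart.

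**Figure D1:**
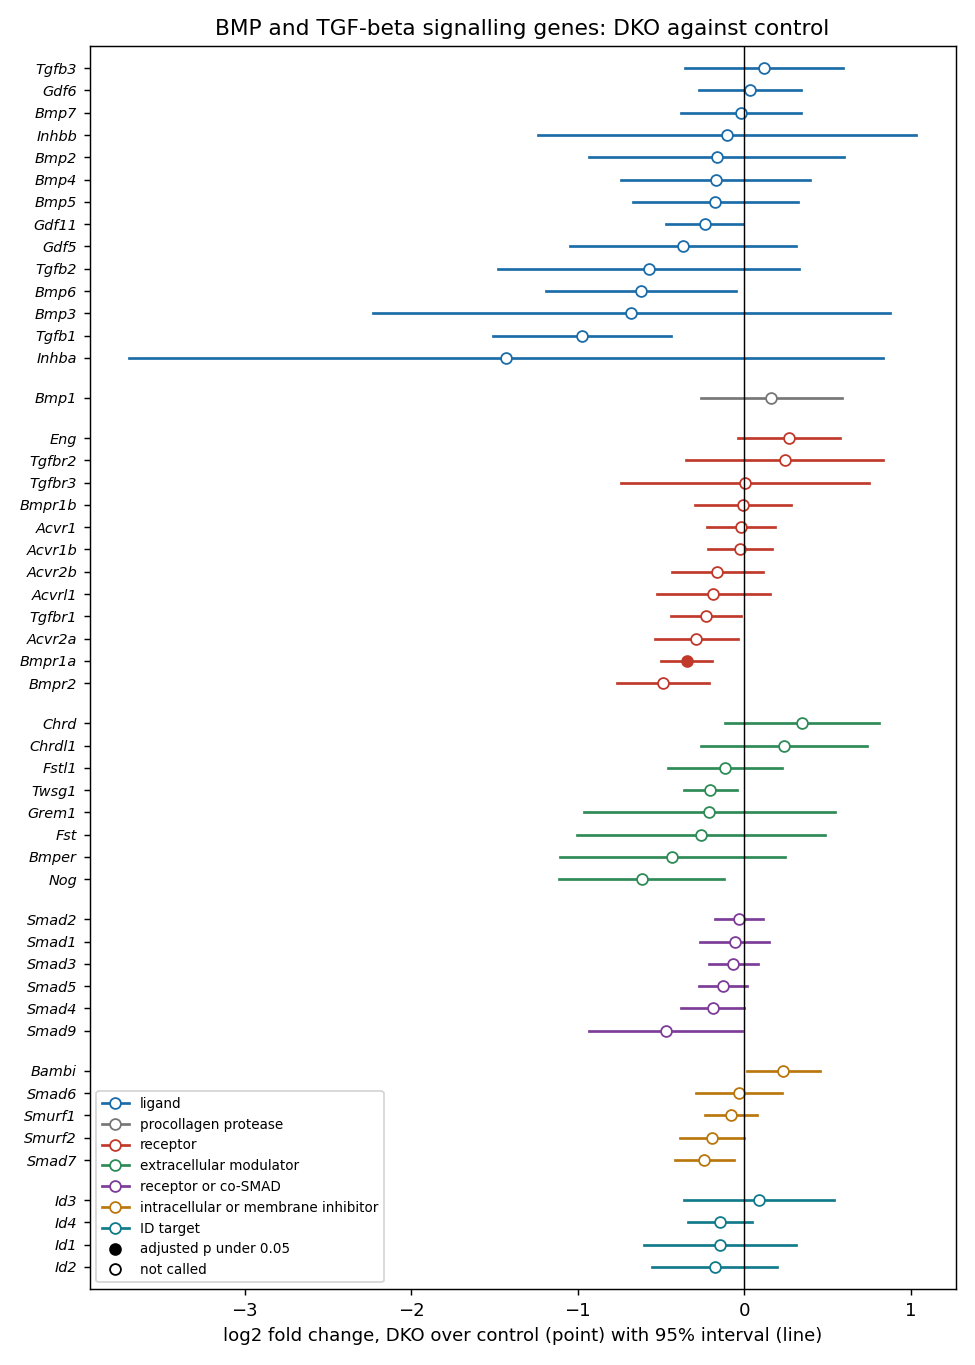
Log2 fold change of DKO over control for the 50 genes, grouped by role, with the 95% interval from edgeR's quasi-likelihood fit as a line and a filled point where the adjusted p was under 0.05. Bmpr1a at -0.35 is the only filled point, and the estimates run from -1.43 for Inhba to 0.34 for Chrd.

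The ligands were the group with the widest spread, and none of the 14 was called, while 12 of 14 had a negative log2 fold change (Bmp7 among them, which was positive with scaling by library size only) and the median was -0.20. That median was -0.081 without DKO replicate 3, -0.039 without control replicate 1, -0.54 without DKO replicate 2 and -0.36 without control replicate 3. Tgfb1, which encodes the founding TGF-beta ligand, was at 1.48, 1.94 and 2.48 CPM in DKO replicates 1, 2 and 3 and at 3.78, 4.08 and 3.79 CPM in control replicates 1, 2 and 3. The 3 DKO libraries were all below the 3 control libraries. Its log2 fold change was -0.98 (SE 0.23, 95% interval -1.51 to -0.44), or 50.9% of control, and the adjusted p was 0.0672, short of the threshold. These levels rest on 55, 85 and 111 counts in DKO and 169, 91 and 111 counts in control libraries. Without DKO replicate 3 the adjusted p of Tgfb1 was 0.0263, and DESeq2 on all 6 libraries gave 0.0115. Leaving out other libraries raised it to as much as 0.243, and the other alternative settings to as much as 0.622.

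The ligands next in order of p were less separated. Bmp6, a ligand of the BMP5 to BMP7 subgroup, was at 1.99, 2.99 and 3.33 CPM in DKO and 4.88, 3.41 and 4.48 CPM in control libraries, which did not overlap by a small margin. For Bmp6 the log2 fold change was -0.62 (SE 0.25, adjusted p = 0.207). Gdf11, a ligand related to myostatin that patterns the axial skeleton, was at 88.0, 76.1 and 91.7 CPM in DKO and 90.9, 111 and 99.3 CPM in control libraries, and DKO replicate 3 lay above control replicate 1. Tgfb2, needed for normal craniofacial and heart development in the mouse, was at 55.2, 78.1 and 32.5 CPM in DKO and 109.9, 74.5 and 62.1 CPM in control libraries. The groups overlapped, and the log2 fold change of Tgfb2 was -0.57 (SE 0.37, adjusted p = 0.423).

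Inhba, which encodes the activin A subunit, had the estimate farthest from 0 and the widest interval. It was at 2.07, 5.51 and 0.715 CPM in DKO and 14.8, 4.53 and 2.84 CPM in control libraries, so control replicate 1 was far above and DKO replicate 3 far below the rest. Its log2 fold change was -1.43 with a 95% interval of -3.69 to 0.83 (adjusted p = 0.423). Left-out libraries moved it from -0.40 without control replicate 1 to -2.44 without DKO replicate 2, and it was -0.98 without DKO replicate 3. Bmp4, which patterns the distal arch, was at 38.5, 44.2 and 23.6 CPM in DKO and 48.7, 35.6 and 35.1 CPM in control libraries, and the groups overlapped. The log2 fold change of Bmp4 was -0.17 (95% interval -0.74 to 0.39), and without DKO replicate 3 it was 0.049. Bmp7, with a DKO level of 81.1 ± 15.9 CPM and a control level of 82.2 ± 10.3 CPM, had an interval of -0.38 to 0.34, and the remaining ligands Bmp2, Bmp3, Bmp5, Gdf5, Gdf6, Inhbb and Tgfb3 had estimates from -0.68 to 0.12.

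Levels per length differed more between ligands than between groups. In control libraries, Gdf11 was highest at a level of 24.7 ± 2.51 CPM per kb of exon, followed by Bmp7 at 20.5 ± 2.56, Bmp4 at 17.7 ± 3.42 and Tgfb2 at 14.2 ± 4.28, neighbours whose SDs overlap. Tgfb3 followed at 9.87 ± 1.63 CPM per kb. Tgfb1, at a control level of 0.771 ± 0.0339 CPM per kb, and Inhbb, at 0.189 ± 0.0115 CPM per kb, were among the lowest. Bmp1, a metalloprotease that trims procollagen and cleaves chordin and is no BMP ligand, was at 185, 233 and 161 CPM in DKO and 201, 182 and 134 CPM in control libraries. Bmp1 had a log2 fold change of 0.16 (SE 0.18, adjusted p = 0.648).

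**Figure D2:**
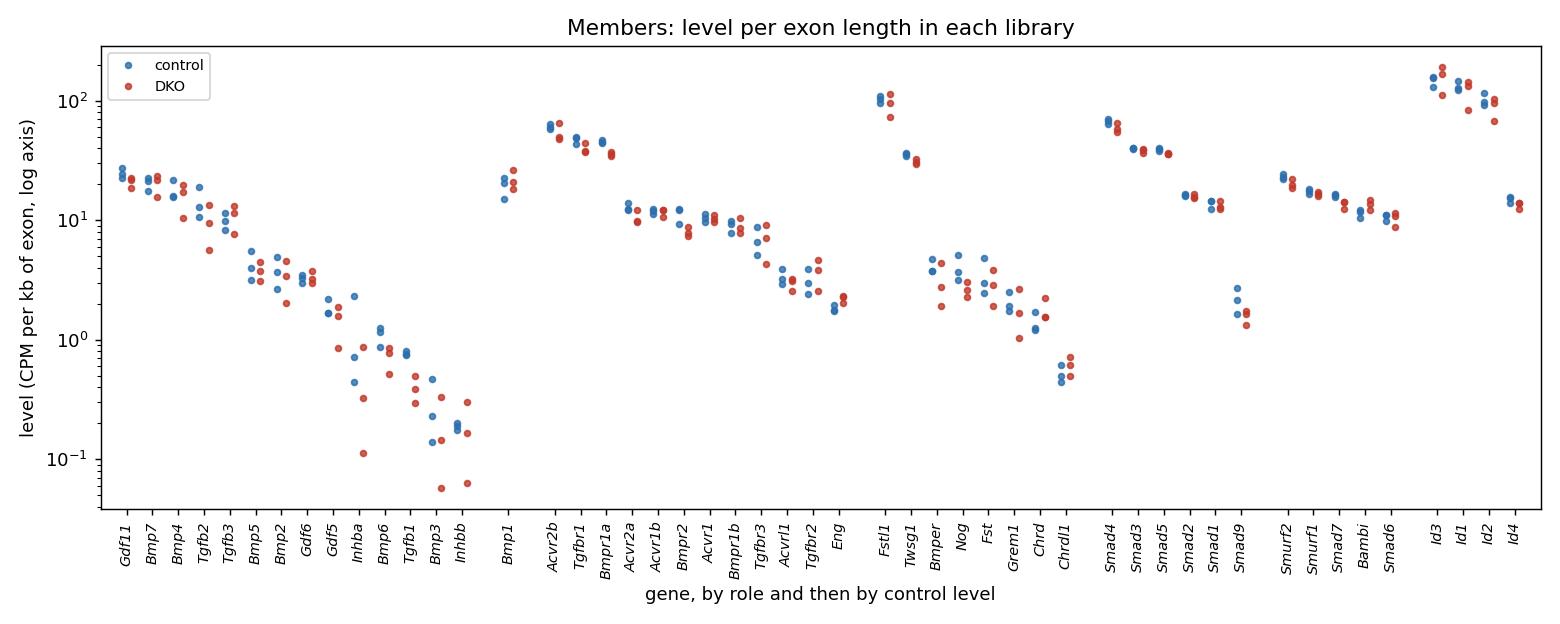
Level of each gene in each of the 6 libraries, in TMM-scaled CPM per kb of exon on a log axis, by role and then by control level, with control points in blue and DKO points in red. Control levels run from 0.189 for Inhbb to 147 for Id3, and for most genes the red and blue points overlap.

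The receptors held the called gene. Bmpr1a, which encodes the type I receptor for BMP2 and BMP4 (ALK3), was at 219, 236 and 227 CPM in DKO and 285, 299 and 283 CPM in control libraries. The groups did not overlap and the spread within each was small, 227 ± 8.63 CPM against 289 ± 8.82 CPM. The log2 level of Bmpr1a fell by 0.35 (SE 0.067, 95% interval -0.50 to -0.19, adjusted p = 0.0349), which leaves 78.7% of the control level (70.7% to 87.6%). The call was lost without DKO replicate 1, DKO replicate 2 or any 1 of the 3 control libraries, with adjusted p up to 0.195, and held without DKO replicate 3 (adjusted p = 0.0406); the estimate stayed between -0.37 and -0.31. It was also lost with scaling by library size only (adjusted p = 0.0659). In GENCODE vM21, Bmpr1a spans chr14:34410734-34503341 on the minus strand of GRCm38, and 290 of its exon bases (4.57%) overlap the antisense gene Gm17110. The strand setting of the counting is not given, so reads from that stretch cannot be told apart. The same limit holds for other members, with larger opposite-strand overlaps for Bmp5 (46.7% with Gm26903) and Gdf5 (40.3% with Gm15557).

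The 3 receptor genes next in order of p had lower mean levels in DKO, and none was called. Bmpr2, the type II BMP receptor, was at 131, 141 and 159 CPM in DKO and 221, 217 and 167 CPM in control libraries. The groups did not overlap, though control replicate 3 lay close to DKO replicate 3. Bmpr2 had a log2 fold change of -0.49 (SE 0.12, 95% interval -0.76 to -0.21, adjusted p = 0.0724), and by DESeq2 it passed the threshold. With 1 library left out, the adjusted p of Bmpr2 by edgeR ran from 0.0386 to 0.264. Acvr2a, a type II receptor for activins and BMPs, was at 55.5, 54.7 and 69.2 CPM in DKO and 79.4, 69.8 and 69.8 CPM in control libraries. The log2 fold change of Acvr2a was -0.29 (SE 0.11, adjusted p = 0.183), and DKO replicate 3 reached almost to the control values. Tgfbr1, the type I TGF-beta receptor (ALK5), was at 249.6, 244 and 290.2 CPM in DKO and 282, 315 and 322 CPM in control libraries, and its groups overlapped through DKO replicate 3. Tgfbr1 had a log2 fold change of -0.23 (SE 0.092, adjusted p = 0.208).

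In Bmpr2, Acvr2a, Acvr2b and Tgfbr1, DKO replicate 3 was the highest of the DKO libraries. Acvr2b, the other activin type II receptor, was at 193, 189 and 256 CPM in DKO and 228, 238 and 248 CPM in control libraries, so DKO replicate 3 was the highest of all 6. Without DKO replicate 3, 5 of the 50 genes were called lower, namely Bmpr1a, Bmpr2, Acvr2a, Acvr2b and Tgfb1, and 0 higher. Of all 14601 genes tested in that fit, 597 were called higher and 509 lower. Without control replicate 3, Bmpr2 was the only member called, and without DKO replicate 1 or 2 or control replicate 1 or 2 none was. The summed level of the 12 receptor genes was 1097, 1138 and 1231 CPM in DKO and 1359, 1391 and 1317 CPM in control libraries, which did not overlap. With library totals not scaled by TMM, DKO replicate 3 lay just above control replicate 3 in this sum.

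**Figure D3:**
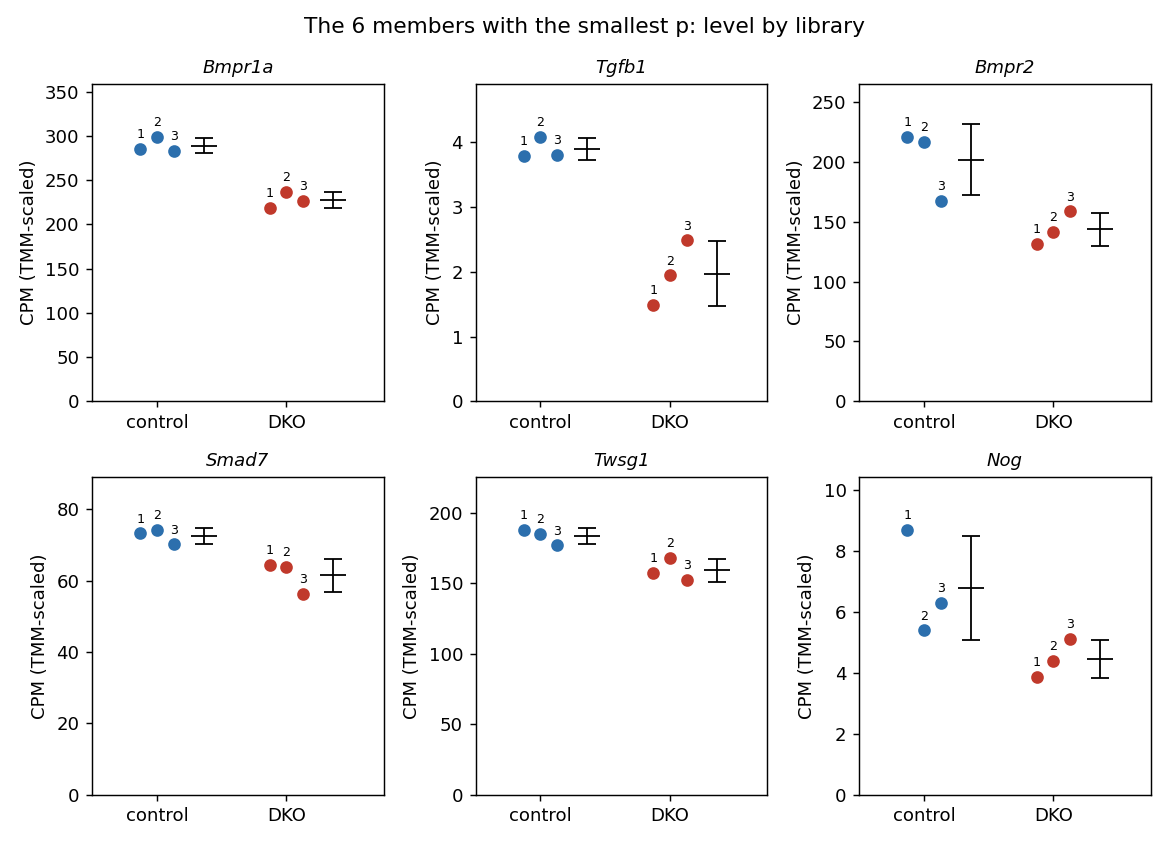
Level in each library of the 6 genes with the smallest p, in TMM-scaled CPM with axes from 0; points are libraries numbered by replicate, and the bars beside them give the mean ± SD of 3 libraries. In all 6 panels the DKO points lie below the control points, with Bmpr1a at 219 to 236 CPM against 283 to 299 CPM, and only Bmpr1a was called.

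The rest of the receptor genes were not called, and some of their intervals were wide. Bmpr1b, the type I receptor most related to Bmpr1a, had a DKO level of 53.1 ± 7.85 CPM and a control level of 53.5 ± 6.14 CPM, with a 95% interval of -0.30 to 0.28 on the log2 scale. Per length, the control level was 45.5 ± 1.39 CPM per kb for Bmpr1a and 8.97 ± 1.03 CPM per kb for Bmpr1b. The ratio of Bmpr1a to Bmpr1b in CPM per kb was 4.09 ± 0.681 in DKO and 5.12 ± 0.604 in control libraries, and the groups overlapped. Acvr1 and Acvr1b, type I receptors for BMPs and activins, had log2 fold changes of -0.018 and -0.028. Those of Tgfbr2 and Tgfbr3, the type II TGF-beta receptor and the co-receptor betaglycan, were 0.24 and 0.0058. Their 95% intervals were wide, -0.35 to 0.84 for Tgfbr2 and -0.74 to 0.75 for Tgfbr3.

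Eng and Acvrl1 encode endoglin and ALK1, TGF-beta family receptors best known from endothelial cells. Eng was at 9.16, 9.32 and 8.22 CPM in DKO and 7.92, 7.13 and 7.08 CPM in control libraries, the only member with every DKO library above every control library. The log2 fold change of Eng was 0.27 (SE 0.13, adjusted p = 0.288), and that of Acvrl1 was -0.18 (adjusted p = 0.507). Of 15 endothelial markers tested, Tie1 and Cd34 rose, with log2 fold changes of 3.04 and 2.03 (adjusted p = 0.000503 and 0.00272), and 13 were not called. Summed over the list, DKO libraries lay between 156.5 and 162.3 CPM and control libraries between 110.2 and 122.2 CPM. The 14 listed markers that were not called, Sox17 below the filter among them, summed to 107.7 ± 10.1 CPM in DKO libraries against 105.6 ± 5.29 CPM in controls. Much of that sum was Fli1, at 62.1 ± 9.16 CPM in DKO libraries against 70.4 ± 6.36 CPM in controls, and the other 13 summed to 45.6 ± 4.38 CPM against 35.2 ± 3.89 CPM. Of the 15 tested, 14 had a positive log2 fold change, and the median of the 15 was 0.44. Every DKO library lay above every control library for 5 of the 15 (33.3%), against 14.5% of all tested genes. Besides Tie1 and Cd34 these were Pecam1 at 0.79 (adjusted p = 0.111), Emcn at 0.99 (adjusted p = 0.124) and Sox18 at 0.54 (adjusted p = 0.32). The part of endothelial cells in the Eng values was not tested.

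Among the 8 secreted modulators none was called, 6 had negative log2 fold changes, and the median was -0.21. That median was -0.0028 without DKO replicate 3, -0.039 without control replicate 1 and -0.40 without DKO replicate 2. Twsg1, a chordin-binding protein that can dampen or aid BMP signalling, was at 157, 168 and 152 CPM in DKO and 188, 185 and 177 CPM in control libraries. Nog, which encodes the BMP antagonist noggin, was at 3.85, 4.39 and 5.10 CPM in DKO and 8.68, 5.38 and 6.29 CPM in control libraries. For both genes the groups did not overlap, though control replicate 2 lay close to DKO replicate 3 for Nog. The log2 fold changes were -0.20 (SE 0.069, adjusted p = 0.153) for Twsg1 and -0.62 (SE 0.22, adjusted p = 0.164) for Nog.

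Chrd, encoding the BMP antagonist chordin, was at 9.73, 13.98 and 9.66 CPM in DKO and 10.7, 7.90 and 7.59 CPM in control libraries, and the groups overlapped. The log2 fold change of Chrd was 0.34 (SE 0.20, adjusted p = 0.361), the highest of the 50 genes. Bmper, a secreted BMP-binding regulator, was at 13.3, 21.3 and 9.19 CPM in DKO and 22.9, 18.2 and 17.98 CPM in control libraries. DKO replicate 2 lay inside the control range and the other DKO libraries below it, and its adjusted p was 0.428. Fstl1, a secreted follistatin-like glycoprotein, had the highest level of the group, at 469.5, 558 and 360.2 CPM in DKO and 535, 502 and 467 CPM in control libraries, and its groups overlapped. The log2 fold changes of Fst, Grem1 and Chrdl1, which encode antagonists of activins and BMPs, were -0.26, -0.21 and 0.24.

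The 6 SMAD transducers had narrow spreads, and none was called. All 6 estimates were negative with a median of -0.095, though those of Smad1, Smad2 and Smad3 were positive with scaling by library size only. Smad9, a BMP receptor SMAD, was at 8.87, 9.32 and 7.11 CPM in DKO and 14.6, 11.6 and 8.82 CPM in control libraries, with control replicate 3 inside the DKO range. Smad9 had a log2 fold change of -0.47 (SE 0.20, adjusted p = 0.23). Smad4, the shared partner of receptor SMADs, was at 213, 202 and 239.8 CPM in DKO and 238, 259.6 and 249.6 CPM in control libraries, overlapping by a small margin. Smad4 had a log2 fold change of -0.19 (SE 0.083, adjusted p = 0.242).

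Smad5, a BMP receptor SMAD, was at 264, 269 and 263 CPM in DKO and 295, 284 and 289 CPM in control libraries. The groups did not overlap, and the log2 fold change of Smad5 was -0.13 (SE 0.063, adjusted p = 0.291). Smad3, a TGF-beta receptor SMAD, was at 215, 217 and 202 CPM in DKO and 222, 217 and 224 CPM in control libraries, and its 95% interval ran from -0.21 to 0.084. The interval of Smad1 was -0.27 to 0.15, and that of Smad2 was -0.18 to 0.11. The summed level of the 6 genes was 929.1, 910.1 and 937.7 CPM in DKO and 1003, 1002 and 995 CPM in control libraries, which did not overlap. That separation depended on the TMM scaling. With library totals not scaled by TMM, DKO replicate 3 lay above control replicates 2 and 3. Per length, Smad4 had the highest control level at 67.1 ± 2.94 CPM per kb and Smad9 the lowest at 2.17 ± 0.535 CPM per kb.

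Of the 5 inhibitors none was called, and 4 had negative estimates, of which that of Smad6 was positive with scaling by library size only. Smad7, the inhibitory SMAD of TGF-beta signalling and itself a TGF-beta target, was at 64.3, 63.8 and 56.3 CPM in DKO and 73.3, 74.3 and 70.1 CPM in control libraries. The groups did not overlap, and the log2 fold change of Smad7 was -0.24 (SE 0.078, adjusted p = 0.143). Bambi, a pseudoreceptor that blocks type I receptors, was at 74.6, 69.3 and 61.4 CPM in DKO and 53.2, 59.7 and 61.8 CPM in control libraries. DKO replicate 3 lay just below control replicate 3, so the groups overlapped, and the log2 fold change of Bambi was 0.23 (SE 0.096, adjusted p = 0.215).

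Smurf2, a ubiquitin ligase for SMADs and receptors, was at 122, 115 and 137 CPM in DKO and 142, 151 and 135 CPM in control libraries, with an adjusted p of 0.238. Smurf1, its paralogue, was at 104, 109 and 101 CPM in DKO and 115, 111 and 105 CPM in control libraries. Both pairs of groups overlapped. Smad6, the inhibitory SMAD of BMP signalling, had an estimate of -0.032 with a 95% interval of -0.29 to 0.23.

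The ID genes, which encode helix-loop-helix proteins that block differentiation factors and are read as targets of BMP signalling, were not called. Id1 was at 165, 154 and 96.4 CPM in DKO and 143, 170.3 and 147 CPM in control libraries. Id2 was at 254, 235 and 166 CPM in DKO and 238, 280.00 and 222 CPM in control libraries. Id3 was at 343, 301 and 199 CPM in DKO and 233, 278 and 281 CPM in control libraries. For these 3 genes DKO replicate 3 was the lowest of the 6 libraries, while DKO replicates 1 and 2 lay within or above the control range. Id4 was at 54.0, 48.1 and 53.8 CPM in DKO and 58.9, 53.0 and 60.2 CPM in control libraries. The log2 fold changes of Id1, Id2, Id3 and Id4 were -0.15 (SE 0.19), -0.18 (SE 0.16), 0.090 (SE 0.19) and -0.14 (SE 0.084). Their median was -0.14 with all 6 libraries and 0.021 without DKO replicate 3, a change of sign, and it was -0.23 without DKO replicate 1 and -0.065 without control replicate 2. Per length, the control levels of Id3 at 147, Id1 at 132 and Id2 at 101 CPM per kb were among the highest of the 50 genes, with Fstl1 at 102 CPM per kb.

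The order of the libraries was shared by many of these genes. DKO replicate 3 was the lowest of the 6 libraries for 26 of 50 genes (52%), against 20.1% of all tested genes, and for 10 of the 14 ligands. Control replicate 1 was the highest of the 6 for 18 of 50 genes (36%), against 13.9% of all genes. In 23 of 50 genes (46%), against 19.6% of all genes, DKO replicate 3 was the lowest of its group and control replicate 1 the highest of its group. The median coefficient of variation was 16.2% in DKO and 10.2% in control libraries, against 9.34% and 9.31% over all tested genes. Without DKO replicate 3 the median log2 fold change of the 50 genes was -0.060 with 32 negative, and without control replicate 1 it was -0.050 with 34 negative.

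The bone and matrix genes Runx2 and Tnc, picked after their values were seen, also varied between libraries of a group. Runx2, the regulator of bone formation, was at 54.8, 85.4 and 17.9 CPM in DKO and 104, 43.4 and 31.8 CPM in control libraries. Tnc, an extracellular matrix gene, was at 93.5, 162 and 32.6 CPM in DKO and 125, 68.7 and 52.1 CPM in control libraries. In both genes DKO replicate 3 was the lowest of all, whereas in Ccn2, a gene of the extracellular matrix, it was the highest. The summed blood markers were at 189.4 CPM in DKO replicate 3 and 20.88 to 116.8 CPM in the other libraries, the summed epithelial markers at 36.7 CPM against 20.2 to 30.0 CPM, and the summed crest markers at 2005 CPM against 2201 to 2580 CPM. Their part in the library order was not tested.

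**Figure D4:**
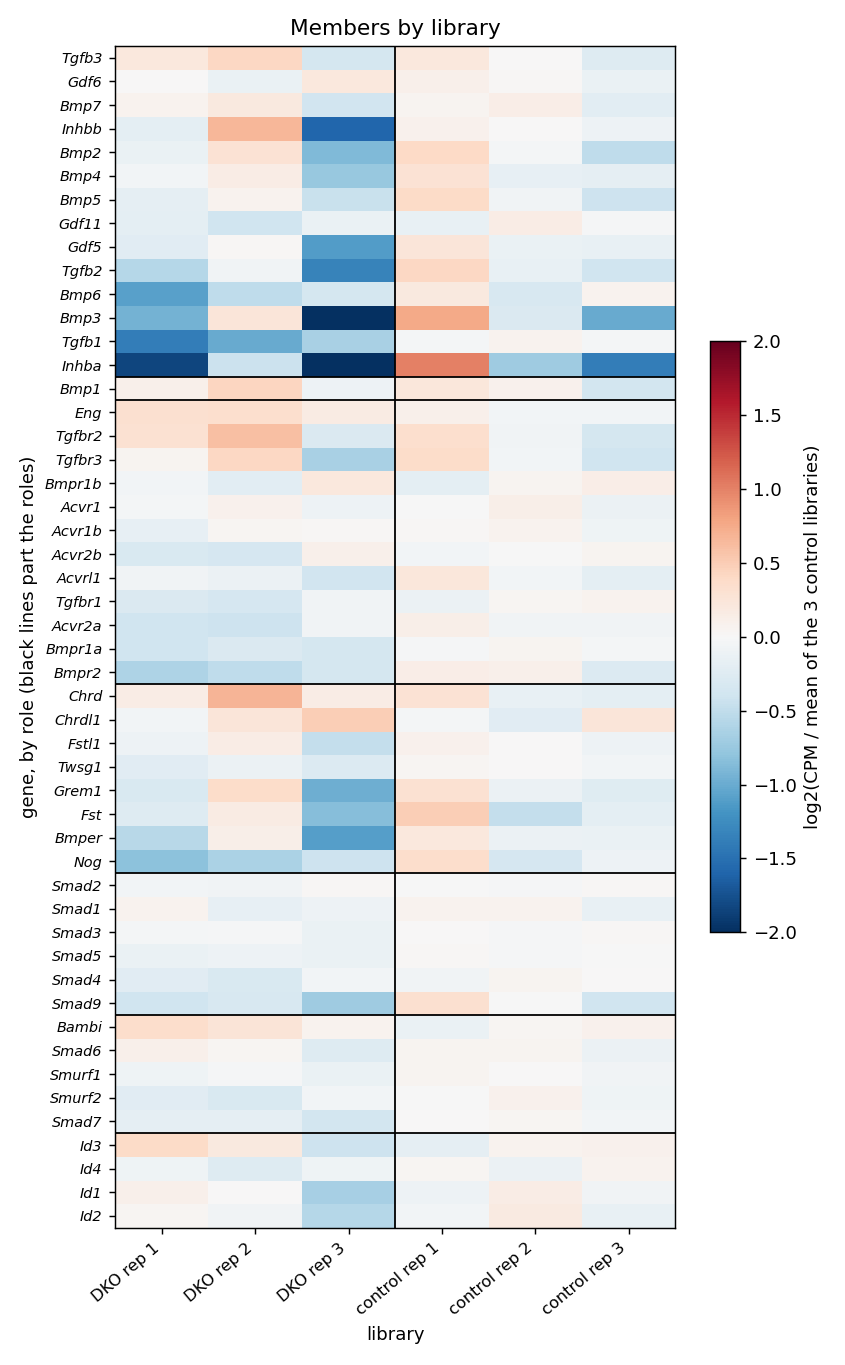
Level of each gene in each library as log2 of CPM over the mean of the 3 control libraries, by role, with red above and blue below that mean; the colour scale ends at -2 and 2, and Inhba and Bmp3 in DKO replicate 3 lie beyond -2. DKO replicate 3 is the bluest column among the ligands, where it was the lowest of the 6 libraries for 10 of 14 genes.

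Beyond the 50 genes, 125 other genes of the pathway were listed and 109 of them tested, of which 1 was called higher and 2 lower, where 3.01% of all tested genes were called. Of the 109, 68 (62.4%) had a negative log2 fold change, against 51.2% of all tested genes. The median was -0.063, against -0.0062 over all tested genes. With scaling by library size only, the median of all genes was 0.073, so small medians of these lists depend on the scaling. Among 18 BMP-responsive arch genes, 15 were negative with a median of -0.19 and 1 was called, Hand1, which encodes a transcription factor of the distal arch. Hand1 was at 9.0, 8.84 and 9.72 CPM in DKO and 15.6, 17.5 and 19.2 CPM in control libraries, well apart. The log2 level of Hand1 fell by 0.92 (SE 0.12, adjusted p = 0.00776). When 1 library was left out in turn the adjusted p lay between 0.0093 and 0.0501, and the call was lost only without DKO replicate 1.

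Among 26 other intracellular regulators, 21 were negative (80.8%, against 51.2% of all tested genes). Their median was -0.087, small enough to depend on the scaling. Usp9x, an X-linked deubiquitinase that acts on SMAD4, was called. Usp9x was at 219.8, 227 and 246 CPM in DKO and 313, 293 and 303 CPM in control libraries, and its log2 level fell by 0.39 (SE 0.073, adjusted p = 0.0295).

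Of 7 other ligands tested, Bmp15, known from the oocyte, was called higher. Bmp15 had 15, 28 and 13 counts in DKO replicates 1, 2 and 3 and 2, 1 and 0 counts in control replicates 1, 2 and 3. It passed the filter on low counts only through the DKO libraries, so its call is not independent of that filter. With library totals scaled by TMM, the ratio of the summed counts was 14.3. Its 95% counting interval of 4.65 to 71.4 covers counting error only. The adjusted p of Bmp15 by edgeR was 0.0289. Its level stayed below 1 CPM in all 6 libraries. The calls of Usp9x and Bmp15 were each lost without DKO replicate 1, DKO replicate 2 or any 1 of the control libraries, and held without DKO replicate 3, with adjusted p up to 0.168 and 0.105.

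**Figure D5:**
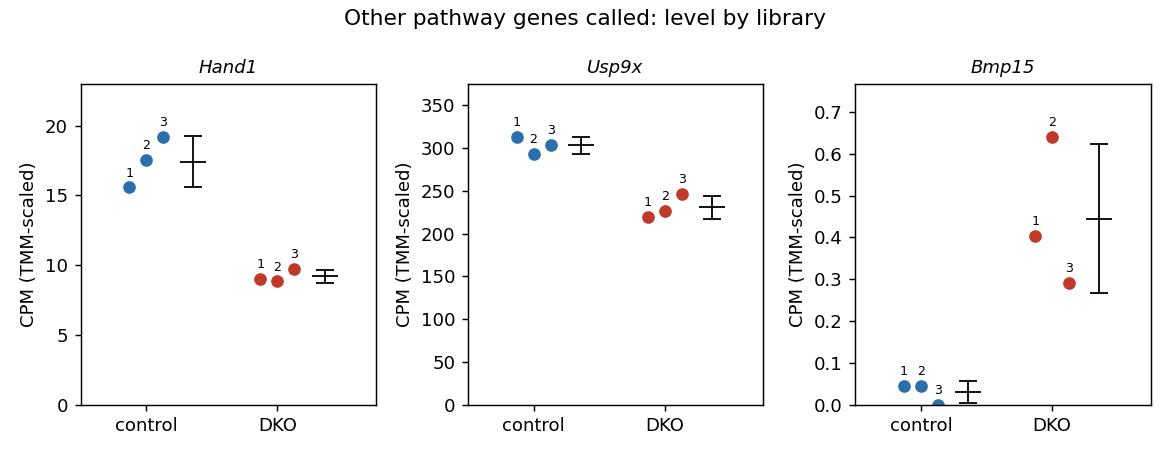
Level in each library of the 3 called genes outside the 50, in TMM-scaled CPM with axes from 0; points are libraries numbered by replicate, and the bars beside them give the mean ± SD of 3 libraries. Hand1 and Usp9x are lower and Bmp15 is higher in DKO, with no overlap, and Bmp15 stays below 1 CPM.

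The lists with no called gene were the other receptors, the other secreted modulators, the latent TGF-beta genes and the TGF-beta-responsive genes. Of 6 other receptors and co-receptors, the smallest p-values were those of Hjv, a BMP co-receptor, and Acvr1c, a type I receptor, with log2 fold changes of 1.11 (SE 0.54) and 0.74 (SE 0.42). Of 16 other secreted modulators, the activin antagonist Fstl3 had a log2 fold change of -0.97 (SE 0.27, adjusted p = 0.105) and the BMP-binding Vwc2 one of 1.32 (SE 0.45, adjusted p = 0.151). Of 17 genes of latent TGF-beta storage and activation, 8 were negative with a median of 0.060. Itgav, an integrin subunit that helps to release active TGF-beta, had a log2 fold change of -0.33 (SE 0.094, adjusted p = 0.106), and Bgn, a matrix proteoglycan, one of 0.61 (SE 0.17, adjusted p = 0.113). Of 20 TGF-beta-responsive genes, 11 were positive with a median of 0.064. Ccn2, which encodes a secreted matricellular protein, was at 41.1, 34.8 and 63.6 CPM in DKO and 25.0, 30.7 and 34.5 CPM in control libraries, which did not overlap by a small margin, with a log2 fold change of 0.63 (SE 0.23, adjusted p = 0.185). Cdkn1a, which encodes the cell cycle inhibitor p21, had a log2 fold change of -0.43 (SE 0.17, adjusted p = 0.19). Among markers of other cells, the muscle gene Myl1 was called higher at 3.53 on the log2 scale (adjusted p = 0.00353). Its level was 0.0676 ± 0.0223 CPM in controls against 0.865 ± 0.111 CPM with DKO. Control replicates 1, 2 and 3 held only 4, 1 and 2 counts of Myl1, against 35, 40 and 33 for DKO. Only the DKO libraries thus carried Myl1 past the filter on low counts, and its call is not independent of that filter. Of the 9 muscle and mesoderm markers tested, the other 8 were not called. Across these 9, 6 log2 fold changes were positive and 3 negative, with a median of 0.42. No epithelial, blood, neuronal, glial or smooth muscle marker was called by edgeR.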

How the data were processed

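The authors deposited whole-number counts for each gene symbol, made with Trim Galore, STAR 2.7.10a and Picard on mm10, per the submitters' processing notes. How reads were counted, with which strand setting and annotation, is not given in the sources used here. Total counts were 23414466 to 44538260 per library. Replicates of a group differed by more than counting noise.

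The 50 members, the other gene lists and the marker lists were chosen with earlier results of these data known. Values in every library are given for called members, for the 4 members of each role with the smallest p, and for the member of each role with the highest mean CPM. From each pathway list the text names called genes or, with none called, the 2 genes with the smallest p. Inhba, Bmp4, Eng, Acvr2b, Runx2 and Tnc were given library values, and Fli1, Pecam1, Emcn and Sox18 were named, after their values were seen. 1 gene of the TGF-beta-responsive list is not reported here and is left out of that list's counts.

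The test was the robust 2-sided quasi-likelihood test of edgeR 4.0.16 (R 4.3.3), with TMM scaling, filterByExpr by group (minimum count 10, minimum total 15) and no covariate. Benjamini-Hochberg adjustment ran over 14555 genes, with calls at an adjusted p under 0.05. The SE is the absolute log2 fold change over the square root of F. The code was tested on simulated data, where 82 of 100 2-fold changes and 98 of 100 4-fold changes were recovered. Of the 202 genes called there, 10.9% were false, more than the adjusted p threshold of 0.05 aims for. Levels per length divide CPM by the merged exon length in GENCODE vM21. Alternatives were RLE and library-size scaling, a filter of 1 CPM in 3 libraries, no filter, a replicate block, DESeq2 1.42.0, limma-voom (limma 3.58.1), no robust option, a test against a 1.5-fold change, and leaving out each library.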

Additional observations from a re-analysis of the deposited data

How the results depend on the processing

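The number of the 50 genes called lower was 1 with the reported settings, 0 with library-size scaling, the replicate block or the test against a 1.5-fold change, 3 with DESeq2 (Bmpr1a, Bmpr2 and Tgfb1), and 0 to 5 when 1 library was left out; the number called higher was 0 to 0. Of the other pathway genes, the number called higher was 1 with the reported settings, 0 with the 1 CPM filter, 4 with the block, 2 with DESeq2 and 0 against a 1.5-fold change, and the number called lower was 2 with the reported settings, 1 with library-size scaling, 4 with the block, 7 with DESeq2 and 0 against a 1.5-fold change. Leaving out 1 library gave 0 to 4 higher and 0 to 5 lower, with the most of each without DKO replicate 3. Over all 14555 genes tested, 319 were called higher and 119 lower with the reported settings. DESeq2, the block and the test against a 1.5-fold change also covered 14555 genes. DESeq2 called 624 higher and 482 lower, the block 423 higher and 196 lower, the test against a 1.5-fold change 104 higher and 18 lower, and leaving out 1 library gave 110 to 597 higher and 21 to 509 lower, lowest without DKO replicate 1 and highest without DKO replicate 3. The causes were not tested.

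Deviations of same-numbered DKO and control libraries had correlations of 0.051, -0.026 and 0.36 for replicates 1, 2 and 3. Differently numbered libraries had correlations from -0.39 to 0.45. The same-numbered libraries thus did not stand out as a set, and the numbers were not taken as pairs. With the replicate block Bmpr1a had an adjusted p of 0.0567.

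With library-size scaling, the estimates that changed sign were Bmp7 (0.059), Bmpr1b (0.073), Acvr1 (0.062), Acvr1b (0.052), Smad1 (0.020), Smad2 (0.047), Smad3 (0.014) and Smad6 (0.046). Bmpr1b was at 0.0076 with the 1 CPM filter, and Tgfbr3 at -0.024 with the block and -0.051 with limma-voom. When 1 library was left out, the log2 fold changes that crossed 0 ran from -0.46 to 0.096 for Bmp2, -0.36 to 0.049 for Bmp4, -0.35 to 0.079 for Bmp5, -0.14 to 0.13 for Bmp7, -0.061 to 0.11 for Gdf6, -0.75 to 0.31 for Inhbb and -0.049 to 0.31 for Tgfb3. They ran from -0.13 to 0.083 for Bmpr1b, -0.077 to 0.050 for Acvr1, -0.070 to 0.033 for Acvr1b, -0.26 to 0.25 for Tgfbr3, -0.61 to 0.063 for Grem1, -0.53 to 0.082 for Fst, -0.27 to 0.034 for Fstl1, -0.11 to 0.070 for Smad6, -0.29 to 0.058 for Id1 and -0.078 to 0.29 for Id3.

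With 3 libraries a group, the 95% interval of Inhba spans from -3.69 to 0.83 on the log2 scale, and the low counts of Tgfb1 and Bmp15 limit their precision.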
